A study of Mus musculus with 3 samples.

Results

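Cycling cells of the adult mouse lacrimal gland (LG), the exocrine gland that secretes the watery part of tears, were taken as the barcodes with at least 3 UMIs (unique molecular identifiers, each standing for 1 captured RNA molecule) of *Mki67*, *Top2a*, *Pclaf*, *Birc5* and *Ube2c* together, from at least 2 of these 5 genes. The cells were thus selected on measured UMIs of these genes, and the rule took 177 of 19592 cells. The cells came from 3 droplet scRNAseq libraries of C57BL/6J mice aged 2 months, each a pool of 6 LGs from 3 animals: 1 from females and 2 from males. Values for the 3 libraries are given with the female library first, then the first and the second male library. Glands of females were processed at another core facility and on a different day, hence the sexes cannot be told apart from the core or the day, and no test of sex was made. A library is a pool, so the spread given between libraries is not the spread between animals.

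A dividing cell copies its DNA in S phase, condenses and separates its chromosomes in G2 and mitosis (G2/M), and returns to G1 or leaves the cycle. S phase genes encode the replication machinery and are known targets of E2F factors, whereas G2/M genes encode mitotic kinases, cyclins, kinesins and kinetochore proteins and are typically controlled through CHR and CCAAT elements near their start. *Mki67* encodes a protein that coats mitotic chromosomes, *Top2a* the topoisomerase that untangles them, *Pclaf* a partner of the replication clamp PCNA, *Birc5* (survivin) a subunit of the chromosomal passenger complex, and *Ube2c* the ubiquitin-conjugating enzyme that works with the anaphase-promoting complex.

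The stretches before the start of 4 of the 5 rule genes are shown because they hold matches to these elements, in different numbers and kinds. *Birc5* held no match and is not printed. The sequences are from RefSeq (GRCm38.p6), 250 bases upstream of the annotated start, read 5′ to 3′ on the strand of the gene. Bases just after the start were found in a known transcript of the same gene for *Top2a*, *Pclaf* and *Ube2c*. They were not found for *Mki67* and *Birc5*, whose starts thus rest on the annotation alone. Capitals mark TTTGAA (CHR) and CCAAT on either strand, so TTCAAA and ATTGG are the same letters on the opposite strand. The stretches lie at chr7:135716380-135716629 (minus strand) for *Mki67*, chr11:99024190-99024439 (minus strand) for *Top2a*, chr2:164769679-164769928 (plus strand) for *Ube2c* and chr9:65890073-65890322 (plus strand) for *Pclaf*.
Mki67: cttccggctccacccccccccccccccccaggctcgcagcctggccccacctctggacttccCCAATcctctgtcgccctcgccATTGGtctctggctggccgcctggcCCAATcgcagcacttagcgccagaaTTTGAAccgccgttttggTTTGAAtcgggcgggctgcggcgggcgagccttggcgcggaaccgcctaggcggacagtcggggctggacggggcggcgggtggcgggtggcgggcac
Top2a: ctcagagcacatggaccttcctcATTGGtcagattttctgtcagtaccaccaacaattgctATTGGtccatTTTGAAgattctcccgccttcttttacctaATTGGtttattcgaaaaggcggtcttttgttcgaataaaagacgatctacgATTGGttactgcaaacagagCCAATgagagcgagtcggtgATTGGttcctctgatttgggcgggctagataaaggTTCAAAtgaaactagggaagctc
Ube2c: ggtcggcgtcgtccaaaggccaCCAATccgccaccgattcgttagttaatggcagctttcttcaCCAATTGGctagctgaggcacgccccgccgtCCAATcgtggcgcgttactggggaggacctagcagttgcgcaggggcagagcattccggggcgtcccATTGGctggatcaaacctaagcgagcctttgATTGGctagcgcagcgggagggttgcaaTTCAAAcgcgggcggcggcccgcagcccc
Pclaf: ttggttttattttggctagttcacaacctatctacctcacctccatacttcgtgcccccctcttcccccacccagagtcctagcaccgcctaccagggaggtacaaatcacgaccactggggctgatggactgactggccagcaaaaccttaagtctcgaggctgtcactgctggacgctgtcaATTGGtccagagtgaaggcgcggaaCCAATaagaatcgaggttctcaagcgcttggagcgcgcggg

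In the window from 250 bases before to 50 after the start, *Top2a* and *Ube2c* each held 6 CCAAT matches, *Mki67* 3 and *Pclaf* 2. The pair of matches at the middle of CCAATTGG in *Ube2c* overlap. *Mki67* and *Top2a* held 2 CHR matches each, *Ube2c* 1 and *Pclaf* 0, and *Birc5* held none of the letters searched in the window. *Pclaf* was the rule gene with an E2F site (TTTCCCGC or TTTGGCGC), which spanned the annotated start and is therefore not in the stretch printed. Over the gene lists used below, CHR was present in 25 of 37 promoters of 34 matched G2/M genes (67.6%), in 4 of 34 promoters of 29 matched S phase genes (11.8%) and in 17.9% of all 32851 promoters. The E2F site had the opposite distribution, in 10 of 34 S phase promoters (29.4%) and 0 of 37 G2/M promoters, against 1.56% of all promoters. CCAAT was in 81.1% of G2/M, 58.8% of S phase and 37.4% of all promoters. These are matches of letters, not sites shown to be bound.

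Each library held cycling cells. They numbered 89 of 8298 female cells (1.07%, 95% exact binomial interval 0.862 to 1.32), and 54 of 5582 (0.967%, 0.728 to 1.26) and 34 of 5712 (0.595%, 0.413 to 0.831) in the libraries from males. These intervals cover counting error only. The libraries differed in depth, and the part of depth in these shares was not tested. Cycling cells had a median of 6475, 2416 and 2069 UMIs, against 3302, 1891 and 1879 over all cells. No barcode outside the called cells met the rule, among 1801829 to 2160612 such barcodes per library, and of the called barcodes that failed the quality filters 1 met it. Uncalled barcodes of 10 to 100 UMIs, which hold free RNA, contained 4, 1 and 3 UMIs of the 5 genes in the 3 libraries (195, 22.9 and 92.9 CPM, counts per 1000000 over UMIs outside mitochondrial genes and the tear-product genes, which encode abundant secreted proteins of the gland). Over all cells kept, the 5 genes were at 59.7, 57.7 and 40.6 CPM. These levels were below those of the uncalled barcodes in the female and the second male library, where the uncalled values rest on few UMIs. The part of free RNA in the rule-gene UMIs was not tested. Libraries shared 11 to 17 cell barcodes by pairs, and none of these was a cycling cell.

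The rule genes were unevenly split among the cells they chose, which is a description of the rule. *Top2a* was detected in 131 of the 177 cells (74.0%), *Mki67* in 119, *Birc5* in 117, *Pclaf* in 103 and *Ube2c* in 101. The share of a gene's UMIs that lay in the cycling cells ran from 65.4% for *Mki67* to 88.3% for *Ube2c*. In 18 cells, all of the female library, all 5 genes were detected. At the edge of the rule, 33 cells had exactly 3 UMIs, while 53 cells outside had 2 UMIs of 2 genes and 13 had 3 or more UMIs of 1 gene.

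**Figure D1:**
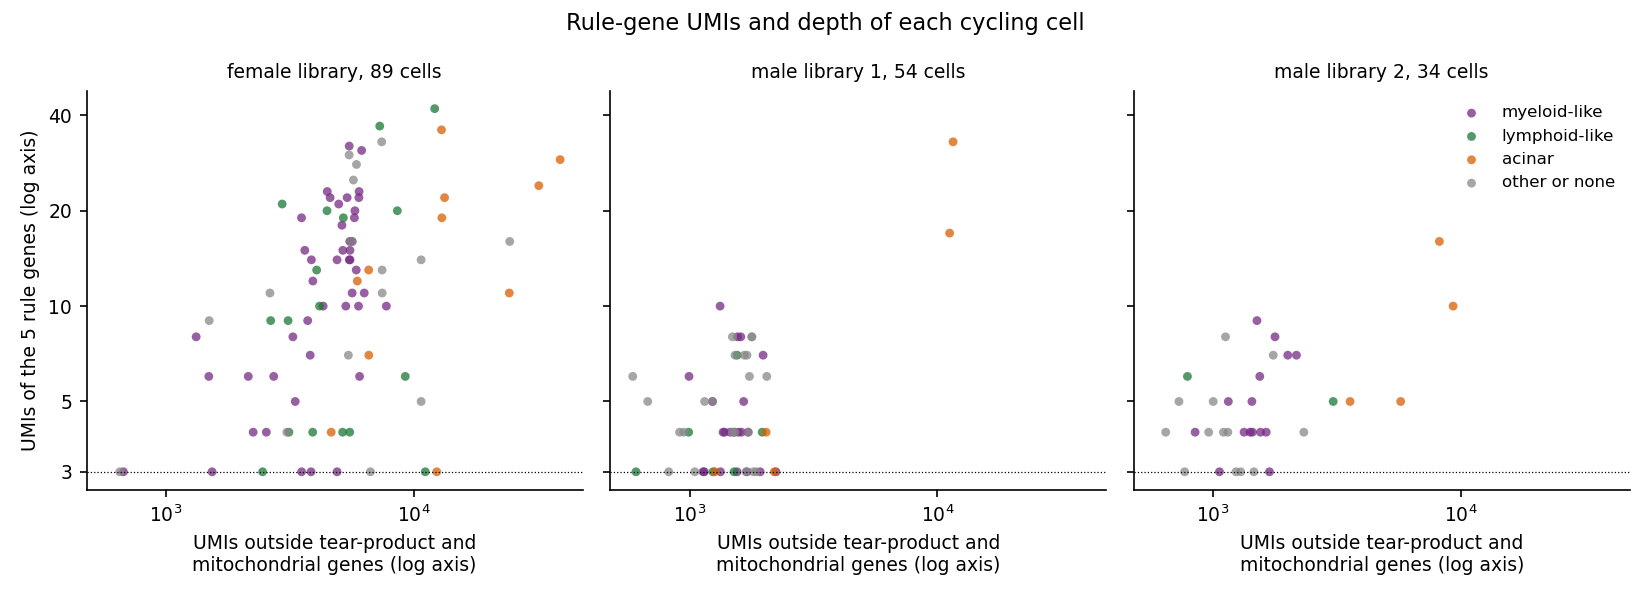
Each point is 1 cycling cell, with its UMIs outside tear-product and mitochondrial genes on the x axis (log scale) and its UMIs of the 5 rule genes on the y axis (log scale). The panels are the 3 libraries, the colours are cell classes and the dotted line is the limit of 3 UMIs. The deepest cell in each panel is acinar, and the male libraries hold few cells with 10 or more rule-gene UMIs (3 and 2, against 55 in the female library).

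Genes that the rule did not read were also followed across that edge. Lists of 40 S phase genes and 41 G2/M genes, which do not contain the rule genes, gave a median of 16 UMIs in cells with 3 rule-gene UMIs, 14.5 with 4, 18.5 with 5 to 9 and 65.5 with 10 or more. Cells just outside had a median of 8 (2 UMIs of 2 genes) and 10 (3 or more UMIs of 1 gene), and cells with 1 and with 0 rule-gene UMIs had medians of 2 and 1. Per 10000 UMIs outside tear-product and mitochondrial genes, cycling cells with 3 rule-gene UMIs had 74.1 UMIs of the lists, cells with 2 UMIs of 2 genes 55.0, cells with 3 or more UMIs of 1 gene 38.3 and cells with no rule-gene UMI 6.76. The edge was not sharp in every library. In the female library cells with 2 UMIs of 2 genes had 44.6, close to the 46.7 of cycling cells with 3 UMIs. In the libraries from males, the 3 and 2 cells with 3 or more UMIs of 1 gene had 113 and 157, against 115 and 112 in cycling cells with 3 UMIs. At least 6 UMIs of the lists were present in 171 of the 177 cycling cells (96.6%), but these were 16.7% of the 1021 cells with that many.

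The question put to the data was which lineages of the gland cycle. Lineage was first called by the gene with the most UMIs among *Ptprc* (CD45, all leukocytes), *Epcam* (epithelium), *Col1a1* (fibroblasts) and *Pecam1* (CD31, endothelium). Immune cells made up 81 of the 122 cycling cells with a call (66.4%, 57.3 to 74.7), epithelial cells 31, endothelial cells 7 and fibroblasts 3, while 6 were tied. By library, immune cells numbered 59, 15 and 7, epithelial cells 18, 8 and 5, endothelial cells 1, 4 and 2 and fibroblasts 0, 3 and 0. The interval pools the cells of the 3 libraries and covers counting error only. In the male libraries alone the immune share was 50% of 44 cells, outside that interval. None of the 4 genes was detected in 49 cells (9, 22 and 18 in the 3 libraries), so the 50% leaves out many cycling cells of the male libraries. By the marker panels described below, immune cells were 75.3%, 64.8% and 64.7% of all cycling cells in the 3 libraries.

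As a share of each lineage, cycling cells made up 3.23%, 4.48% and 2.03% of immune cells in the 3 libraries (3.25 ± 1.22%, mean ± SD, n = 3). The epithelial shares were 1.04%, 0.591% and 0.391%, the endothelial shares 0.131%, 1.75% and 1.38%, and the fibroblast shares 0, 0.531% and 0. The count of 0 fibroblasts allows up to 0.175% of 1718 cells in females and 0.920% of 326 in the second male library. The immune share was the highest and the fibroblast share the lowest in each of the 3 libraries. The shares differed between lineages by an exact two-sided Friedman permutation test within libraries (p = 0.0174, smallest possible 0.00174, n = 3 libraries). Without either of the male libraries the exact permutation p was 0.167 (n = 2), and without the female library 0.0417, the smallest that 2 libraries allow. Endothelial and epithelial shares changed order between the female and the male libraries.

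The call was not made at equal depth. With each cell thinned to 1000 UMIs, 25 of 2425 immune, 4 of 4321 epithelial, 2 of 2435 fibroblast and 2 of 1065 endothelial cells still met the rule, and the exact permutation p was 0.135 (n = 3). The immune share stayed the highest in 3 of 3 libraries, at 0.992%, 1.22% and 1.06%, while the other 3 lineages together held 8 cells, too few to order them. The cells too shallow to thin numbered 81 immune, 41 epithelial, 174 fibroblast and 75 endothelial.

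**Figure D2:**
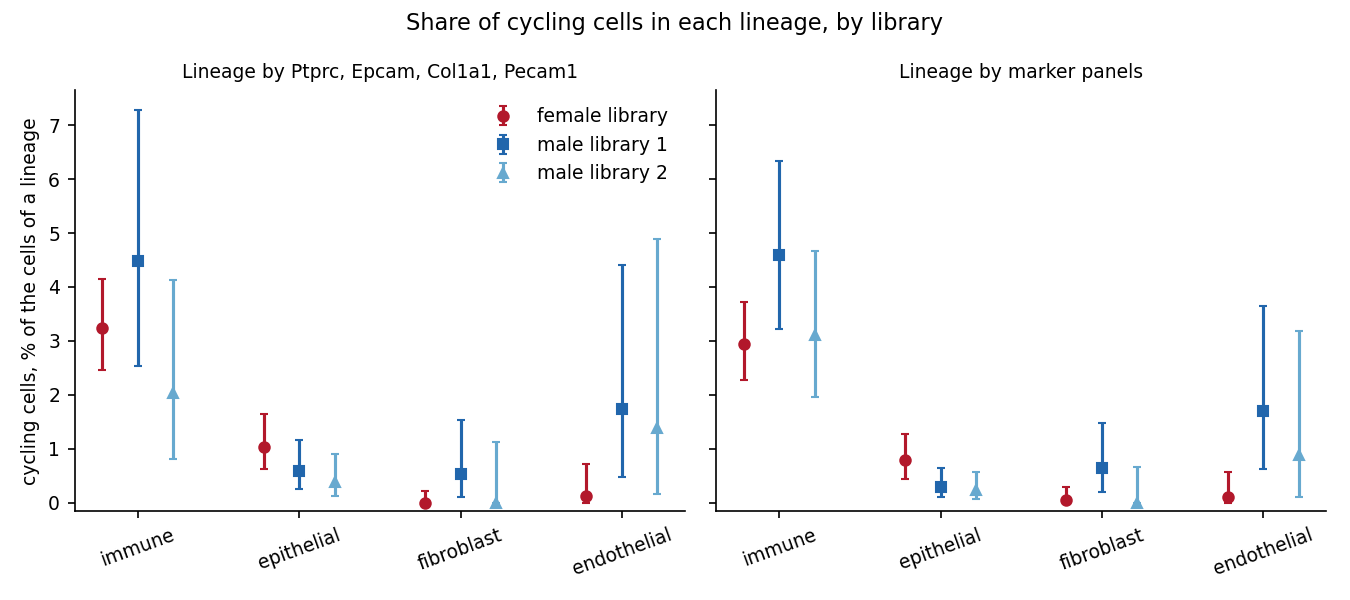
Points are the percent of the cells of a lineage that were cycling, in each library, and bars are 95% exact binomial intervals, which cover counting error only. The left panel calls lineage by 4 genes and the right panel by marker panels of 6 to 8 genes. In both panels the immune share is the highest in all 3 libraries.

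Panels of 6 to 8 markers per lineage placed more of the cells. By the panel with the most UMIs, 124 cycling cells were immune (67, 35 and 22 by library), 27 epithelial (16, 6 and 5), 9 endothelial (1, 6 and 2) and 6 fibroblasts (1, 5 and 0), with 5 mixed and 6 unplaced. Of the 49 cells without any of the 4 genes, 35 were immune by the panels. The calls were the same for 111 of the 117 cells that had both. No cycling cell was found among 83 mural or 9 Schwann cells. The immune share of each library was 2.94%, 4.59% and 3.11%, again the highest. The fibroblast share was not the lowest throughout, since in the first male library it was 0.637% against 0.300% for epithelial cells. The difference between the 4 lineages had an exact permutation p of 0.0538 (n = 3 libraries), which does not pass 0.05. More than 1 of the 4 lineage genes was detected in 20 cycling cells, and no doublet caller was run.

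Among the immune cycling cells, panels of myeloid and lymphoid markers placed 81 on the myeloid side (45, 21 and 15 by library) and 25 on the lymphoid side (17, 6 and 2), and 18 on neither. They are called myeloid-like and lymphoid-like below. Cycling cells were 2.95%, 3.78% and 3.09% of the myeloid-like cells and 2.71%, 8.82% and 2.06% of the lymphoid-like cells, so that neither side was the higher in all libraries. The macrophage panel (the C1q genes, *Csf1r* and others) named 53 of the cycling cells, of 2247 macrophage-like cells (2.36%). The macrophage-like share was 2.17%, 2.73% and 2.64% in the 3 libraries. Cells with the dendritic panel had a larger share than these in each library, 9 of 36, 3 of 28 and 1 of 16, although the intervals were wide (12.1 to 42.2%, 2.27 to 28.2% and 0.158 to 30.2%).

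On the lymphoid side, cells with the natural killer (NK) panel were 11 cycling of 204 in females, and 3 of 28 and 0 of 33 in males. T cells had 2 of 131, 1 of 16 and 3 of 38. Cells with the innate lymphoid cell (ILC) panel had 1 of 202, 0 of 7 and 0 of 9. Cells with the B and plasma cell panel had 3 of 16 in the female library and none of the 4 and 2 cells in the male libraries. These 3 cells also held 28, 79 and 26 UMIs of the duct panel and 0, 1 and 2 of *Ptprc*, and the paper states that its dataset lacked plasma cells. The duct panel includes *Ly6d*, which the paper also lists as a marker of plasmacytoid dendritic cells, and *Epcam* was at 0 in these 3 cells. Their identity is thus unsettled. They held 9230, 11112 and 12133 of the 95051 UMIs outside tear-product and mitochondrial genes in female lymphoid-like cycling cells, which enter the comparisons below. These subset shares were not tested.

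Of the epithelial cells that met the rule, most were acinar, the cells that make the tear proteins. The acinar panel named 20 of the 27 epithelial cycling cells, 11 of 467 acinar cells in females (2.36%), and 5 of 1060 (0.472%) and 4 of 1183 (0.338%) in males. Myoepithelial cells, which contract around the acini, contributed 3 (2 of 295, 1 of 250 and 0 of 188), ducts 1 of 849 and the *Ltf*+ cells, a ductal group marked by lactoferrin, 1 of 773. The remaining 2 had no subset. Acinar cells were also the deepest of these classes. Their median was 37435, 17135 and 19853 UMIs, against 3715, 1710 and 1382 in duct and 3545, 1804 and 1442 in myoepithelial cells. The 5 rule genes were at 33.2, 19.8 and 15.3 CPM over all acinar cells and at 12.0, 56.4 and 16.9 CPM over duct cells. Myoepithelial cells had 69.5, 25.1 and 0 CPM and *Ltf*+ cells 1.34, 11.9 and 12.8 CPM. The part of depth in this split was not tested.

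Pooled over the libraries, the share of acinar cells that met the rule was larger in deeper cells. None of 360 acinar cells with up to 5000 UMIs met the rule, whereas 5 of 915 did between 5000 and 20000, 6 of 926 between 20000 and 50000, and 9 of 509 above (1.77%). In the last 3 of these bins the female library had 0 of 93, 5 of 166 and 6 of 190. The first male library had 3 of 376, 0 of 283 and 2 of 207, and the second 2 of 446, 1 of 477 and 1 of 112. The rise was thus not steady in the male libraries. The deepest cycling acinar cell, in the female library, had 160507 UMIs, 176 of them from S phase genes and 79 from G2/M genes. *Ptprc* was at 0 in 19 of the 20 cycling acinar cells and at 1 UMI in the deepest one. The part of doublets was not tested.

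The rule genes themselves differed between classes in how they were detected. *Birc5* was present in 18 of the 20 cycling acinar cells (81 UMIs) and *Pclaf* in 2 (5 UMIs). In the cycling myeloid-like cells *Pclaf* was present in 56 of 81 (124 UMIs) and *Birc5* also in 56 (113 UMIs). The lymphoid-like cells had *Pclaf* in 16 of 25 (39 UMIs). These counts are descriptions, since the genes chose the cells.

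The position in the cycle was read as the S phase list's share of the UMIs of the S phase and G2/M lists, a ratio within cells. Over all cycling cells it was 34.3%, 27.3% and 25.5%, so G2/M genes gave the larger part in each library. In cells of the same classes that did not meet the rule, the S phase part was the larger, at 61.2%, 54.8% and 51.6% in myeloid-like and 64.1%, 60.7% and 62.3% in acinar cells. Most rule genes are known to peak in G2/M, so the ratio is not independent of the rule.

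Lymphoid-like cycling cells had S phase parts of 40.9%, 41.0% and 23.7%, the last from 2 cells and 38 UMIs of the lists. Myeloid-like cycling cells had 34.0%, 28.0% and 24.9%, and acinar cycling cells 39.3%, 26.7% and 18.7%. The ranges of the 3 classes overlap. The 3 myoepithelial cells stood at the G2/M end, with 4 S phase against 148 G2/M UMIs, 9 against 116 and 1 against 31. The ductal cell had 4 against 148. Among the 155 cycling cells with at least 10 UMIs of the lists, 11 had an S phase part of at least 75%, 68 of at most 25% and 76 lay between.

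**Figure D3:**
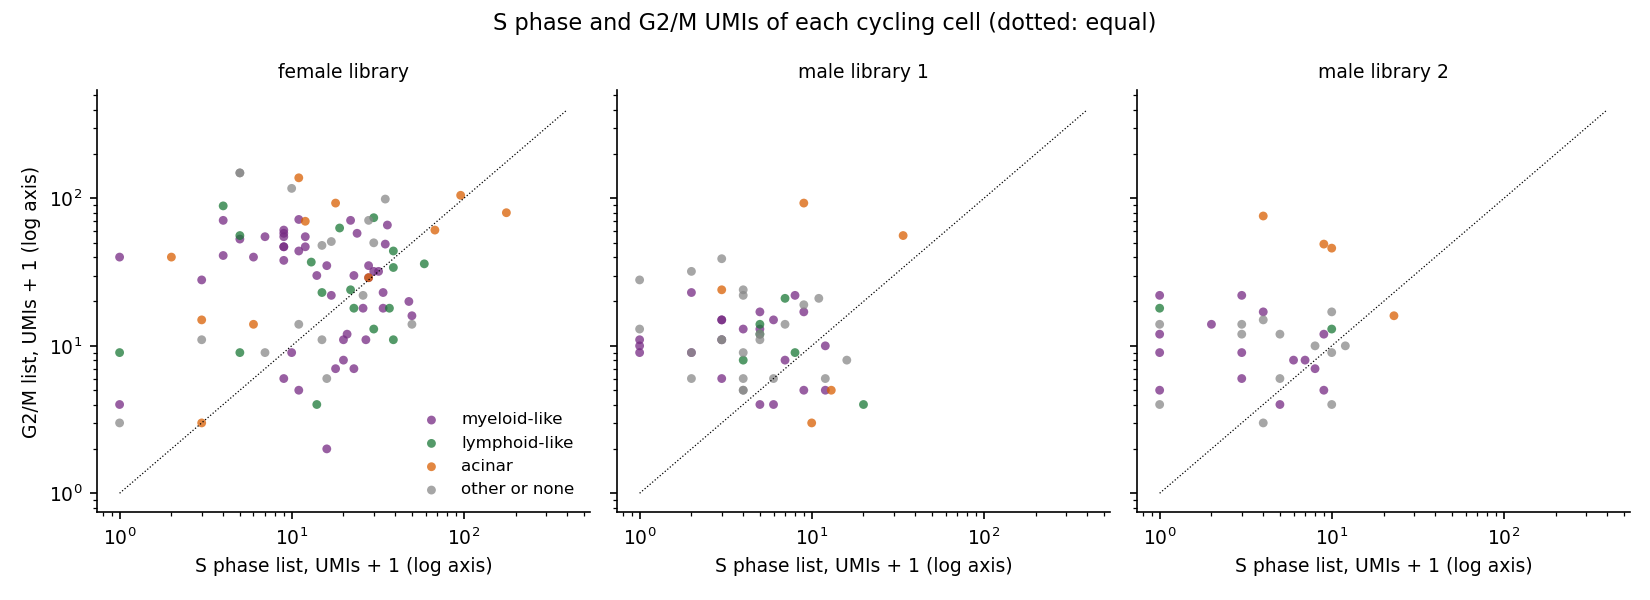
Each point is 1 cycling cell, with its S phase list UMIs plus 1 on the x axis and its G2/M list UMIs plus 1 on the y axis (both log scales), by library and coloured by class. Most points lie above the dotted line of equal counts, and the median S phase part of cells with at least 10 UMIs of the lists was 37.2%, 26.3% and 20.0% by library.

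Compared with the other cells of their own class, cycling cells had higher levels of some of the G2/M, tubulin and chromatin genes, and the number of these differed between classes. The comparison is a description with no test, because the rule made it. UMIs were summed per library and scaled to CPM as above, and a gene was counted when its log2 ratio, with 50 CPM added, was at least 1 (or at most -1) in each of the 3 libraries. Adding 50 CPM understates the ratio of low genes. Over all genes measured other than the rule genes, 0.767% were higher by this measure in cycling myeloid-like cells (55 of 7168) and 0.0558% lower (4), 0.686% higher in lymphoid-like cells (21 of 3063) and 1.18% lower (36), and 0.564% higher in acinar cells (47 of 8336) and 0.036% lower (3). The cells compared numbered 81 against 2487 myeloid-like, 25 against 768 lymphoid-like and 20 against 2690 acinar, and the second male library held 2 of the lymphoid-like cycling cells.

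In cycling myeloid-like cells, 13 of 17 measured G2/M genes, 2 of 24 S phase genes and 13 of 15 tubulin and chromatin genes were higher. The median log2 ratios were 1.86, 0.87 and 1.84, against -0.03 over all genes. *Hmgb2*, a chromatin protein, was at 2592, 2216 and 2306 CPM in the cycling cells of the 3 libraries and at 262, 281 and 289 CPM in the others (log2 ratio 2.88 ± 0.17, SD, n = 3). The groups did not overlap, but the gene was picked for its ratio in each library, so this adds no evidence. *Cdca8*, a subunit with *Birc5* of the passenger complex, had a log2 ratio of 2.35 ± 0.21 and *Nusap1*, a spindle protein, 2.49 ± 0.34. *Stmn1*, which destabilises microtubules, was at 1266, 1498 and 976 CPM against 29.3, 117 and 121 CPM. The S phase genes past the fold were *Atad2* (1.44 ± 0.24) and *Uhrf1* (1.39 ± 0.26), which keeps DNA methylation through replication.

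Genes outside the lists that stood out in cycling myeloid-like cells were led by *Hist1h1b* (2.84 ± 0.55), *Prc1* (2.39 ± 0.25), *Hist1h2ae* (2.37 ± 0.26) and *Hist1h2ap* (2.27 ± 0.23). *Hist1h1b*, *Hist1h2ae* and *Hist1h2ap* are replication-dependent histone genes, whose near-identical copies may share reads, and *Prc1* bundles microtubules at the midzone. Next were *Ube2s*, the chain-extending partner of *Ube2c*, *Smc2* of condensin, *Tmpo*, *Racgap1*, *Nucks1* and *Selenoh*, with log2 ratios of 1.70 to 2.12. No measured G1 cyclin or driver gene was past the fold (0 of 8). Of 11 inhibitor and quiescence genes *Cdkn2d* was higher, at 1.79 ± 0.35. *Cdkn2d* encodes a CDK4/6 inhibitor. *Apoe*, a lipid carrier made by macrophages, was lower, at 10098, 4432 and 9712 CPM in cycling cells against 25104, 17104 and 21425 CPM in the others. *Fabp5*, *Cd63* and the mast cell protease gene *Cma1* were the other genes that were lower. No cell with the mast cell panel was cycling (0 of 12). Of cells with the macrophage panel 53 of 2247 were cycling, against 13 of 80 with the dendritic panel, so the arms differed in their mix of cells. The part of this mix in the values of the 4 lower genes was not tested. These 4 were named after their values were seen.

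Leaving out the female library reduced the G2/M and S phase genes past the fold in myeloid-like cells from 15 to 3, and all genes that were higher from 55 to 30. By the definition of the count, each of the 15 genes was past the fold in each male library. The drop arose because the minimum of 50 UMIs per gene was then counted over the male libraries alone. With 20 CPM added in place of 50 CPM, 24 G2/M and S phase genes were past the fold over the 3 libraries.

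In cycling lymphoid-like cells, 2 of 5 measured G2/M genes and 8 of 14 measured tubulin and chromatin genes were past the fold and 0 of 9 S phase genes. The median log2 ratios were 1.86, 1.60 and 0.71, and 0 of 4 G1 and 0 of 9 inhibitor genes were past the fold. *Hmgb2* was at 2209, 4699 and 3647 CPM against 445, 449 and 401 CPM, and *Smc4*, a condensin subunit, had a log2 ratio of 1.95 ± 0.44. *Tubb5* (2.20 ± 0.35), *H2afz* (1.87 ± 0.17), *Tuba1b* (2.39 ± 0.71) and *Lmnb1* (2.56 ± 0.97) led the tubulin and chromatin list. Outside the lists, *Ezh2*, the methyltransferase of Polycomb repressive complex 2, had a log2 ratio of 2.26 ± 0.45, *Tmpo* 2.29 ± 0.69, *Ranbp1* 1.97 ± 0.70, *Cbx3* 1.74 ± 0.42 and *Ube2s* 1.64 ± 0.18. *Dtymk*, which makes dTTP for DNA, *Siva1*, *Anp32b*, *Nsd2* and *Nap1l1* had ratios of 1.33 to 1.71. In the second male library *Cbx3*, *Nsd2* and *Dtymk* rested on 1 UMI each.

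The genes that were lower in cycling lymphoid-like cells included *S100a4*, at 84.2, 0 and 0 CPM against 678, 620 and 819 CPM. In these small groups 1 UMI was worth 127 CPM in the first male library and 260.5 CPM in the second, so a gene at such a level in the other cells can be at 0 without a change, and the count of 36 lower genes is not read further. *S100a4* was named after its values were seen. Of cells with the ILC panel 1 of 218 was cycling, against 14 of 265 with the NK panel. Tear products made up 16.7%, 43.7% and 18.9% of the UMIs of cycling lymphoid-like cells and 33.7%, 52.5% and 57.7% of those of the class. The part of either in the *S100a4* values was not tested. The median log2 ratio over all genes in this class was -0.27. Genes that were higher numbered 6 without the female library, 42 without the first male library and 38 without the second, rather than 21. The minimum of 50 UMIs per gene was counted over the libraries kept, so the 6 does not mean that genes lost the fold in the male libraries.

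In cycling acinar cells, 7 of 8 measured G2/M genes, 5 of 21 S phase genes and 11 of 15 tubulin and chromatin genes were past the fold, with median log2 ratios of 2.74, 0.81 and 2.03 against -0.02 over all genes. No G1 gene (0 of 7) or inhibitor gene (0 of 7) was. *Cdc20*, which activates the anaphase-promoting complex, was at 223, 460 and 523 CPM in the cycling cells and at 0.3, 1.5 and 0 CPM in the others, the difference on the log2 scale being 3.09 ± 0.57. *Stmn1* was at 734, 991 and 1159 CPM against 6.6, 17.7 and 17.0 CPM. *Rrm2*, the ribonucleotide reductase subunit made in S phase, was at 194, 248 and 262 CPM against 3.9, 5.9 and 4.6 CPM. *Pcna* (1.56 ± 0.51) and *Rrm1* (1.33 ± 0.30) were also past the fold. No cycling and non-cycling value of these 5 genes overlapped, but they were picked for their ratio in each library, so this adds no evidence.

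Outside the lists, *Calm2* (2.62 ± 0.66), *Arl6ip1* (2.53 ± 0.66), *Ube2s* (2.46 ± 0.33), *Ccdc34* (2.38 ± 0.22) and *Smc2* (2.20 ± 0.16) led in cycling acinar cells. *Ppia*, *Hnrnpa3*, *Selenoh*, *Nucks1* and *Spc25*, a kinetochore subunit, had ratios of 1.55 to 1.99. *Esp31*, an exocrine gland-secreted peptide and itself a tear-product gene scaled to the same total, was lower, at 1374, 212 and 299 CPM against 3749, 1333 and 1795 CPM, as were *Gm12886* and the stress gene *Nupr1* (-1.18 ± 0.11). These 3 were named after their values were seen. With all UMIs in the total, in place of those outside tear-product and mitochondrial genes, 3 S phase and G2/M genes were past the fold in acinar cells rather than 12, and 12 genes in all rather than 47. Tear products were 76.8% to 85.4% of acinar UMIs by library. Without the female library 7 S phase and G2/M genes and 84 genes in all were past the fold. Here too the minimum of 50 UMIs per gene was counted over the male libraries alone.

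**Figure D4:**
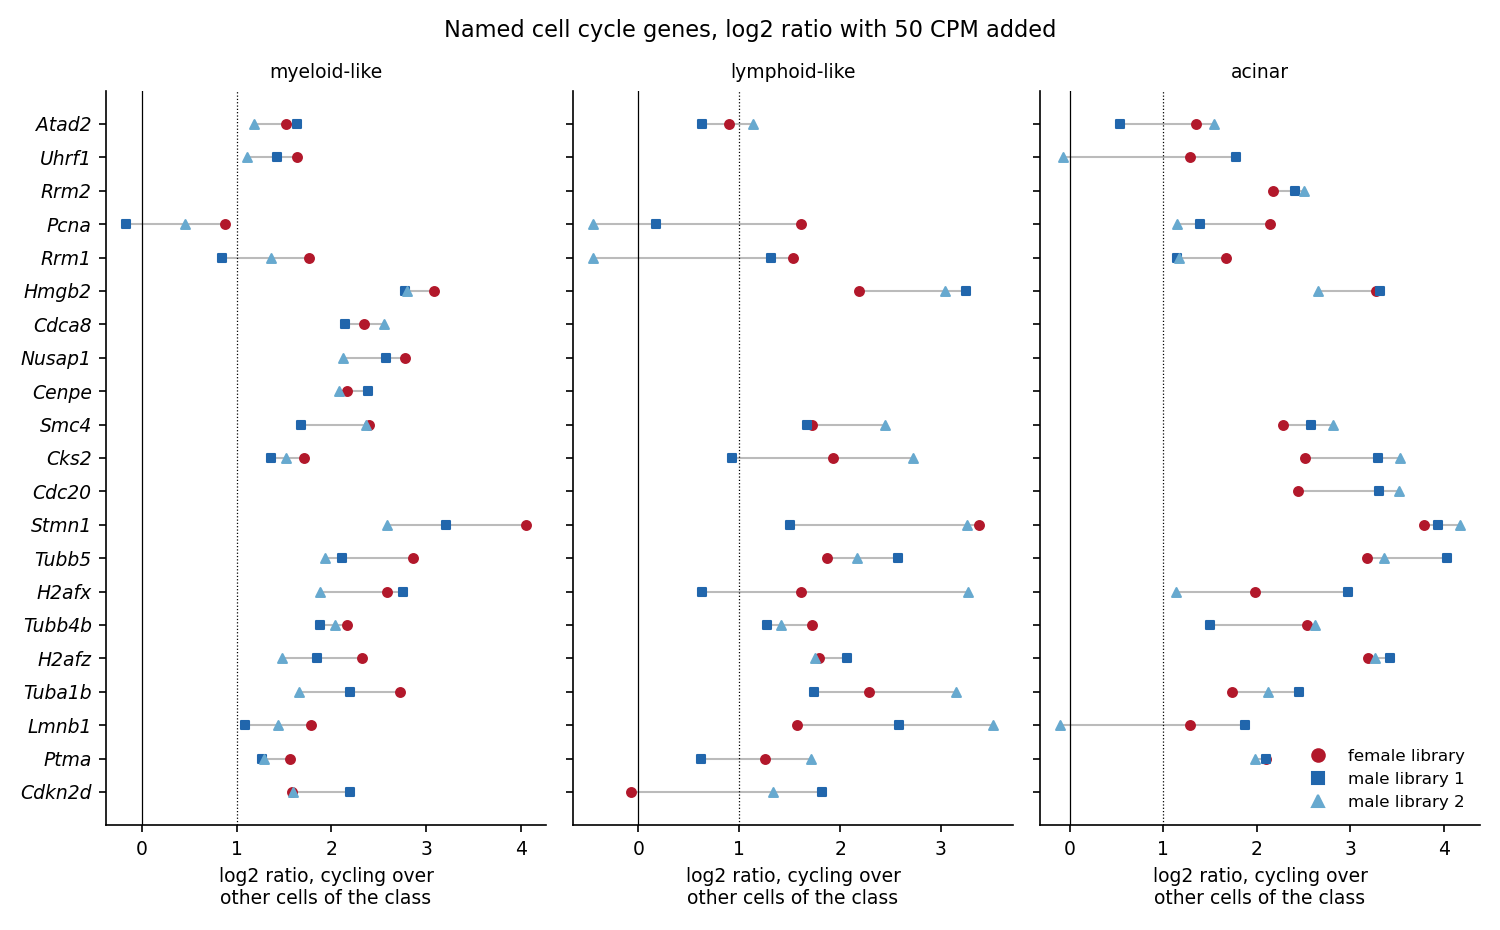
Points are log2 ratios of the level in cycling cells to that in other cells of the same class, with 50 CPM added, in each library, for the named cell cycle genes. The solid line marks 0 and the dotted line a log2 ratio of 1, and a gene with fewer than 50 UMIs in a class has no point. *Hmgb2*, *Smc4*, *Stmn1*, *Tubb5*, *Tubb4b*, *H2afz* and *Tuba1b* lie past 1 in all 3 libraries of all 3 classes.

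Cycling lymphoid-like and cycling myeloid-like cells were compared directly, since the rule did not use this contrast. The arms were sorted by lineage markers, so other genes that go with these markers are likely to differ too. Non-cycling cells of the same classes were not compared, so the calls are not read as particular to cycling cells. UMIs were summed per library and arm and tested with edgeR's quasi-likelihood test with library as a block, over 540 genes. At an adjusted p under 0.05, 32 genes were higher in the lymphoid-like cells (5.93%) and 109 in the myeloid-like cells (20.2%). The markers that made the arms serve as a check only: *C1qa*, *C1qb* and *C1qc* were higher in the myeloid-like and *Trbc2*, *Xcl1* and *Klre1* in the lymphoid-like cells. With total UMIs in place of TMM scaling the split was 50 against 87. The second male library contributed 2 lymphoid-like cells and 4898 UMIs, and leaving out the female library left 1 gene called, leaving out the second male library 79.

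Outside the marker panels, the 10 genes with the smallest adjusted p that were higher in cycling lymphoid-like cells were as follows. *Gzma*, the granzyme A gene, had 87, 14 and 0 UMIs in the lymphoid-like cells of the 3 libraries and 0 in the myeloid-like cells of each, at least 82.7-fold higher against the limit of 3 UMIs over the group. *Nkg7*, a cytotoxic granule gene, had 81, 4 and 1 UMIs against 8, 0 and 0 (log2 ratio 4.46, SE 0.64, edgeR adjusted p = 3.04e-06). *Ms4a4b* (5.64, adjusted p = 6.36e-06), *Il2rb*, a subunit of the receptor for IL-2 and IL-15 (5.21, adjusted p = 9.36e-05) and *Ptprcap* (4.06, adjusted p = 0.000413) followed. *H2-Q7*, whose reads may be shared with related class I genes, *Lgals1*, *AW112010*, *Sec11c* and *S100a10* differed less, with log2 ratios of 1.40 to 1.98. In the second male library *Gzma* and *Il2rb* had no UMI in either arm.

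Among the 10 genes with the smallest adjusted p that were higher in cycling myeloid-like cells, the class II antigen presentation genes *H2-Aa*, *H2-Eb1* and *H2-Ab1* were lower in lymphoid-like cells by log2 ratios of -7.01, -6.65 and -6.28 (edgeR adjusted p = 1.85e-12, 1.85e-12 and 4.53e-11). *Cxcl2*, a neutrophil attractant, had 515, 176 and 112 UMIs in myeloid-like cells and 0 in lymphoid-like cells, at least 109-fold higher. *Il1b* had 427, 137 and 45 UMIs against 0, at least 82.6-fold higher. *Apoe* had 2026, 142 and 219 UMIs against 0, 1 and 0, a pooled ratio of 971 with a counting interval of 174 to 38376. *Cxcl10*, *Cst3*, *Ccl3* and *Atf3* completed the list, with log2 ratios of -5.71, -4.57, -3.68 and -7.11. The levels of these 10 genes in CPM did not overlap between the arms. They were picked by the smallest adjusted p of this same test, so the separation adds no evidence.

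Over all 540 genes tested, 141 were called, 32 higher in the lymphoid-like cells (5.93%) and 109 in the myeloid-like cells (20.2%). Of the 25 rule and cycle list genes that entered the test, *Tubb5* alone was called. The difference between these shares was not tested. *Tubb5* was lower in lymphoid-like cells (log2 ratio -0.81, SE 0.25, edgeR adjusted p = 0.0177). In the second male library its level went the other way, at 1224 CPM against 922 CPM. None of the 5 rule genes was called, with log2 ratios of -0.68 for *Top2a* to 0.43 for *Ube2c*. Cells of both arms had to hold at least 3 UMIs of these 5 genes, so this outcome is not read as a result. None of the 4 G2/M or 2 S phase genes tested was called, among them *Hmgb2* (0.11, SE 0.23) and *Dut* (0.94, SE 0.54). The intervals are wide at this depth, and a p that misses the threshold does not show equal levels. The median log2 ratio over all 540 genes was -0.11. The *Tubb5* call was not made by DESeq2, with total UMIs, without the library block, or with any 1 of the libraries left out.

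**Figure D5:**
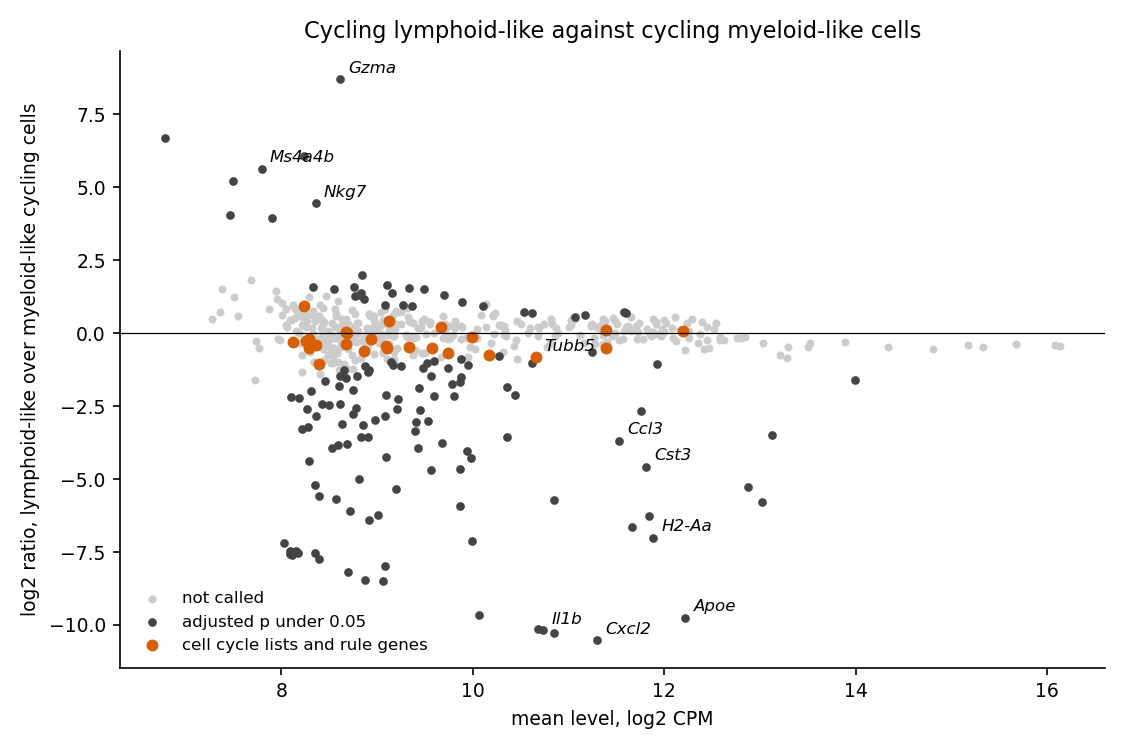
Each point is 1 of the 540 genes tested, with its mean level in log2 CPM on the x axis and the log2 ratio of cycling lymphoid-like to cycling myeloid-like cells on the y axis. Dark points passed an adjusted p of 0.05 (edgeR), and orange points are cell cycle list and rule genes, which lie between -1.05 and 0.94.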

How the data were processed

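The authors aligned and counted reads with Cell Ranger 6.1.2 (genome mm10, per the submitters' notes), and the deposited matrices hold whole UMI counts per gene and barcode. The study's ambient correction and doublet removal were not used here, and no doublet caller was run. Totals were 63066640, 40609390 and 44661762 UMIs over 9737, 6422 and 6899 called barcodes. Barcodes with over 500 UMIs, over 200 genes and under 15% mitochondrial UMIs were kept. Members, gene lists and tests were chosen with earlier results of these data known. Lineage panels needed 3 UMIs of 2 genes and more than 2 times any other panel. 114 tear-product genes (secretoglobin, odorant-binding, major urinary, lipocalin, exocrine gland-secreted peptide and related genes, set by symbol) were left out of CPM totals. Shares carry exact 95% intervals.

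The named genes were the rule genes, the 4 with the largest lowest-of-3-libraries log2 ratio per cycle list, 10 outside the lists, and in edgeR the called cycle genes and 10 genes per direction with the smallest adjusted p. Not every gene that this rule names is reported here. The acinar comparison followed the same rule and was added after the data were seen. edgeR 4.0.16 (filterByExpr, TMM, Benjamini-Hochberg over all genes tested) was tested on simulated data. DESeq2 1.42.0 was an alternative. Python 3 with numpy and scipy, and R 4.3.3, were used.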

Additional observations from a re-analysis of the deposited data

How the results depend on the processing

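The lineage difference (exact permutation p = 0.0174) had p = 0.0174 with at least 2 UMIs, 0.135 with cells thinned to 1000 UMIs, 0.0764 with cells thinned to 500 UMIs outside tear-product and mitochondrial genes and 0.0538 by panels, and 0.0417 to 0.167 without 1 library, where 0.0417 is the smallest possible. Thinning to 1000 UMIs gave immune and epithelial shares of 1.09% and 0.0827%, and to 500 UMIs 0.973% and 0.0669%. Without 1 library, shares were 2.63% to 3.85% (immune), 0.491% to 0.816% (epithelial), 0 to 0.265% (fibroblast) and 0.755% to 1.56% (endothelial). Members numbered 110 at 5 or more UMIs, 1021 by at least 6 UMIs of the lists (immune share 41.1%), and 88 to 143 without 1 library. The immune share of members with a lineage was 74.7% by panels and 50% to 71.7% without 1 library. The S phase part was 29.7% to 33.8% (immune) and 21.8% to 26.2% (epithelial) without 1 library.

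Genes past the fold, S phase and G2/M genes first and all genes second, were 24 and 86 in myeloid-like, 5 and 35 in lymphoid-like cells with 20 CPM added, where acinar cells had 86 in all. With 100 CPM added acinar cells had 28 in all. All UMIs as the total gave 39 in all in lymphoid-like cells and 3 and 12 in acinar cells. A minimum of 20 UMIs gave 6 and 33 in lymphoid-like cells and 21 S phase and G2/M genes in acinar cells. Without 1 library the ranges were 3 to 18 and 30 to 73 (myeloid-like), 1 to 5 and 6 to 42 (lymphoid-like) and 7 to 15 and 62 to 84 (acinar). In these counts the minimum of UMIs per gene was taken over the libraries kept.

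Lymphoid-like against myeloid-like members gave 141 calls, of which 1 was a cycle gene. DESeq2 gave 81 and 0, no filter beyond 1 UMI 290 and 2, no library block 75 and 0, total UMIs 0 cycle genes, tear-product genes left out 2, and leaving out 1 library 1 to 116 calls and 0 cycle genes. The arms of this comparison were paired by library in the main test. The cause of these changes in the calls was not tested. Leaving out 8 further abundant gland genes from the totals, an alternative chosen after seeing the data, kept every count within 1.5 times. Between the sexes no test was made. There was 1 female library, sex coincided with core and day, and nothing pairs the libraries of the sexes.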
